A study of Mus musculus with 400 samples.

Results

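The cells described here are the 90 Lgr5-high intestinal cells with the most Paneth cell granule transcripts, out of 400 single cells in the series. Cells with at least 10000 counts were kept, which left 380. Cells were selected on a measured value, the summed CPM (counts per 1000000 counts of the cell) of 6 genes, Lyz1, Ang4, Itln1, Mmp7, Defa24 and Defa17, so the genes of these cells are described and not tested. Within each of 10 library sets, a number carried by the cell titles, the top 25% of cells were taken, 9 cells per set. They are called Paneth-rich cells below. The cells in the lowest 50% of the same sets, 18 or 19 in each, are called low cells, and the 9 to 11 between them are called middle cells.

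All 400 cells come from 1 sorted population, the Lgr5-high cells of crypts from the duodenum and jejunum of Lgr5 GFP/+ mice. These mice carry the Lgr5::EGFP-IRES-Cre-ERT2 allele, in which the reporter and the tamoxifen-inducible Cre sit at the Lgr5 locus, so Paneth-rich and low cells share that genotype and the sort. The labels pair no cell with an animal, state neither age nor sex, and do not say whether these cells saw tamoxifen. Cells were captured on a Fluidigm C1 high-throughput chip. With no animal named, the population is 1 sample, so no test was made. Every standard deviation (SD) given is over the 10 library sets, a technical split, and covers no spread between mice.

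Paneth cells sit at the base of the small intestinal crypt, wedged between the Lgr5-positive stem cells, and secrete granules of antimicrobial proteins. Alpha-defensins, called cryptdins in mice, are short cationic peptides made as precursors, and in mice the protease matrilysin, encoded by Mmp7, cuts them into their active form. Paneth cells also feed the stem cells with Wnt, Notch and EGF ligands, and Wnt signalling drives both stem cell genes and Paneth cell genes. The mouse has a large family of near-identical alpha-defensin genes in 1 cluster on chromosome 8, which limits how well short reads can be told apart between them.

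The coding sequences of the 2 defensins used in the ranking are shown because their likeness bears on every defensin count. Both come from GENCODE M21 (build GRCm38, plus strand), have equal lengths and are 95.7% identical. Capitals mark the 12 positions at which they differ.
Defa24, chr8:21734494-21735471: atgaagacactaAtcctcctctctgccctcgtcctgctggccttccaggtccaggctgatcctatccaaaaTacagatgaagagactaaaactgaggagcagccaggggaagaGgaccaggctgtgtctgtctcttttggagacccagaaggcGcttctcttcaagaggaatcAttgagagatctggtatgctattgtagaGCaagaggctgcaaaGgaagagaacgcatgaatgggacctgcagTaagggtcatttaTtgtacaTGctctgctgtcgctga
Defa17, chr8:21655780-21656735: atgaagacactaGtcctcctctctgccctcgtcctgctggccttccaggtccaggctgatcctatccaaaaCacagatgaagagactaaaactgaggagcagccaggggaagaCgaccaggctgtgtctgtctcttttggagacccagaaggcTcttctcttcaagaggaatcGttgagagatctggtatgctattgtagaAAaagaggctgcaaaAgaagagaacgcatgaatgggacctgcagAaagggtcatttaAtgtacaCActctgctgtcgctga
The coding sequence of Defa3, which was not used in the ranking, is 100% identical to that of Defa17, and Defa30 is 98.6% identical to Defa24. Lyz1 and Lyz2, which encode the Paneth cell and the macrophage forms of lysozyme, are 86.4% identical when gaps count as differences. The reading frames compared are 447 and 492 bases long, so much of that difference is length. Identity over the bases they share is higher. How reads that match several genes were counted is not given in the sources used here, so counts of such pairs may be shared between them.

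The values that chose the cells are given as a description only. The summed level of the 6 genes ranged from 985 to 9423 CPM in Paneth-rich cells, with a median of 2526, and from 357.8 to 1612 CPM in low cells, with a median of 869. Because the ranking was made within sets, the groups overlap when sets are pooled. The lowest Paneth-rich cell of a set lay between 985 and 2466 CPM, and the highest cell just outside between 931 and 2269 CPM. In raw counts, the 6 genes had a median of 71 counts in Paneth-rich cells and 30 in low cells, with at least 21 in each Paneth-rich cell and at most 69 in any low cell. The level varies without a gap between the classes in each set, as the plot of granule transcripts by library set shows.

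**Figure D1:**
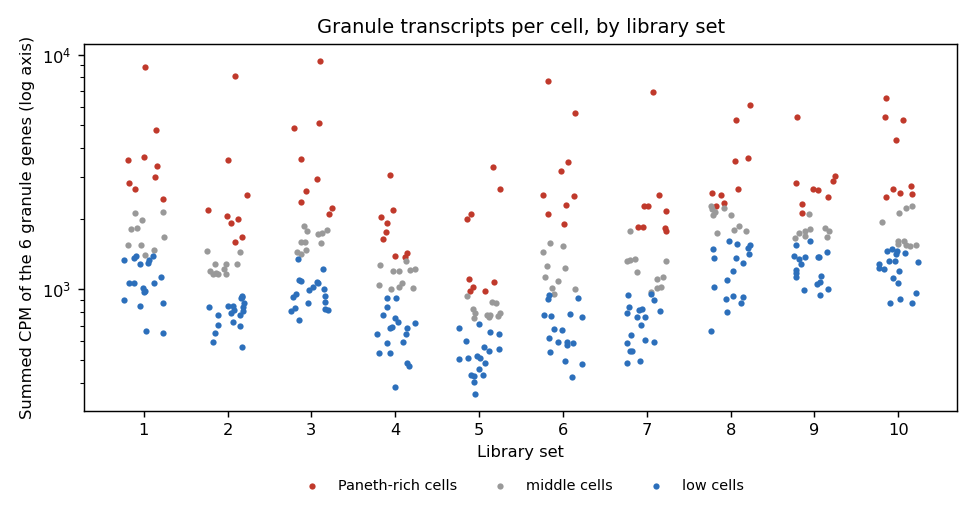
Summed CPM of the 6 granule genes (log axis) for each kept cell, by library set, with 1 point per cell. The 9 Paneth-rich cells of each set reach 3074 to 9423 CPM, and the middle cells fill the range below them with no gap.

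Lyz1, which encodes lysozyme (chromosome 10, 117287797 to 117292868, minus strand), averaged 522 CPM in Paneth-rich cells and 112.3 CPM in low cells, with a median count of 12.5 in Paneth-rich cells and 3 in low cells. Itln1, which encodes the sugar-binding lectin intelectin 1 (chromosome 1, 171518122 to 171535294, minus strand), averaged 591 CPM in Paneth-rich cells and 162.6 CPM in low cells. Ang4, an antimicrobial ribonuclease (chromosome 14, 51763878 to 51773590, minus strand), averaged 157.6 CPM in Paneth-rich cells and 27.05 CPM in low cells. Mmp7 (chromosome 9, 7692090 to 7699585, plus strand) averaged 118.3 CPM in Paneth-rich cells and 16.1 CPM in low cells, and its exons overlap those of another annotated gene. These 2 genes were unevenly spread among Paneth-rich cells, since Ang4 had a count in 54 and Mmp7 in 46 of the 90. Defa17 averaged 669 CPM in Paneth-rich cells and 122.2 CPM in low cells. Defa24 averaged 993 CPM in Paneth-rich cells and 464 CPM in low cells, and it had a count in every kept cell of both classes. The 6 genes were correlated to different degrees among Paneth-rich cells thinned to 10000 counts: Spearman's rho was 0.63 for Lyz1 with Itln1 and 0.11 for Ang4 with Defa24 (90 cells that share library and counting).

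Paneth-rich cells were shallower than low cells. Their median total was 27316 counts, against 34896.5 in low cells, and the median was lower in Paneth-rich cells in 10 of 10 sets. A median of 7851.5 genes had a count in Paneth-rich cells, against 9043.5 in low cells. The mitochondrial genome took a median of 1.02% of counts in Paneth-rich cells and 0.83% in low cells. Over the 380 cells, rho was −0.32 between the summed CPM of the 6 genes and the total, and 0.18 between their raw counts and the total. Depth therefore moves with the ranking by CPM. The Paneth-rich cells were also set against 90 low cells paired to them by total within each set (median total 30994.5), called depth-matched low cells. This left a log2 ratio of median totals of −0.18, against −0.35 with all low cells, so the matching removes only part of the gap. No gene exceeds 36 counts in a cell of the deposited table, and the effect of that ceiling on ratios was not tested. The median log2 ratio of Paneth-rich over low cells was −0.12 for genes with a mean under 1 count and 0.20 for genes with a mean of 15 counts or more.

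Outside the 6 ranking genes, 14176 genes were ranked, those detected in 10% or more of the kept cells with a mean of at least 10 CPM in either class. The ratio used throughout is log2 of mean CPM plus 1 in Paneth-rich cells over the same in low cells. Its median over these genes was −0.05, and −0.05 against depth-matched low cells. At least 2-fold higher in Paneth-rich cells were 110 genes (0.776% of those ranked), and 1.31% were at least 2-fold lower. Direction held in 9 or more sets for 31 of the genes past 2-fold on the high side (0.219%) and for 75 on the low side (0.529%). Without regard to size, 1.43% of ranked genes were higher and 3.17% lower in 9 or more sets. By rule, the 12 genes with the highest and the 12 with the lowest ratio among those with 1 direction in at least 9 of 10 sets are named.

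Of the 12 named genes at the high end, 8 encode alpha-defensins (Defa31, Defa28, Defa27, Defa5, Defa34, Defa35, Defa25 and Defa23), 3 are alpha-defensin pseudogenes (Defa-ps1, Defa-ps7 and Defa-ps10), and 1 is Lyz2. Only Defa25 and Defa23 averaged at least 10 CPM in low cells. The others passed the filter on means through Paneth-rich cells. Defa-ps1, Defa5, Defa34, Defa-ps7 and Defa-ps10 had a count in under 10% of low cells, so higher classes carried them past the detection filter. This list is therefore a description and no support for the choice of cells. Defa31 had 0 to 27 counts per Paneth-rich cell (median 3) and 0 to 4 counts per low cell (median 0). Paneth-rich cells held 511 Defa31 counts in all (exact Poisson 95% interval 468 to 557), and low cells held 56 (42.3 to 72.7). Such Poisson intervals, here and below, cover counting error only. Its mean was 235.5 CPM in Paneth-rich cells and 8.09 CPM in low cells, a log2 ratio of 4.70 ± 1.45 (SD over 10 sets), higher in 10 of 10 sets and 4.78 against depth-matched low cells. Defa28 averaged 115.2 CPM in Paneth-rich cells and 3.50 CPM in low cells (log2 ratio 4.69 ± 2.10), and Defa5 79.9 CPM in Paneth-rich cells and 3.38 CPM in low cells (4.21 ± 1.17). Pseudogene counts are uncertain, because Defa-ps1 (55.6 CPM in Paneth-rich cells, 1.02 CPM in low cells) and its kin share sequence with the coding genes. Lyz2 averaged 168.8 CPM in Paneth-rich cells and 9.59 CPM in low cells (log2 ratio 4.00 ± 1.05, higher in 10 of 10 sets). It had a count in 65.6% of Paneth-rich cells, at most 22 per cell, and in 19.9% of low cells, at most 10 per cell.

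The alpha-defensin family outside the ranking had 23 genes in the table, of which 19 were detected in 10% or more of all kept cells. All 19 were at least 2-fold higher in Paneth-rich cells, where 0.776% of ranked genes were, with a median log2 ratio of 3.50 ± 0.59 and a range of 1.57 to 4.70. The median was 3.41 against depth-matched low cells. These figures describe and do not support the choice of cells, since the family shares sequence with 2 ranking genes, and since 3 of the 19, among them Defa34, had a count in under 10% of low cells and so passed the filter through the Paneth-rich and middle cells. Summed over the family, a Paneth-rich cell held 387.5 to 22980 CPM with a median of 3405, and a low cell 62.8 to 1998 CPM with a median of 711. Cells of the 2 classes thus overlapped at the lower end, and the highest Paneth-rich cell lay far above every low cell. The family took a median of 0.340% of all counts in Paneth-rich cells and 0.071% in low cells.

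The family members most abundant in low cells had the smallest ratios. Defa30 averaged 794 CPM in Paneth-rich cells and 267.2 CPM in low cells (1.57 ± 0.39), and AY761184 averaged 667 CPM in Paneth-rich cells and 213.8 CPM in low cells (1.64 ± 0.41). Both were higher in 10 of 10 sets. Ratios are given next by likeness to a ranking gene. The 4 measured genes at least 95% identical to Defa24 or Defa17 had a median ratio of 3.53, the 9 genes between 85% and 95% had 4.09, and the 6 genes under 85% had 2.92, with a range of 1.64 to 3.68. In the last group, Defa29 (65.5% identity to Defa17 at most) averaged 357.8 CPM in Paneth-rich cells and 58.8 CPM in low cells, and Defa22 (82.5%) averaged 172.9 CPM in Paneth-rich cells and 15.6 CPM in low cells. The part of shared reads in these ratios was not tested.

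**Figure D2:**
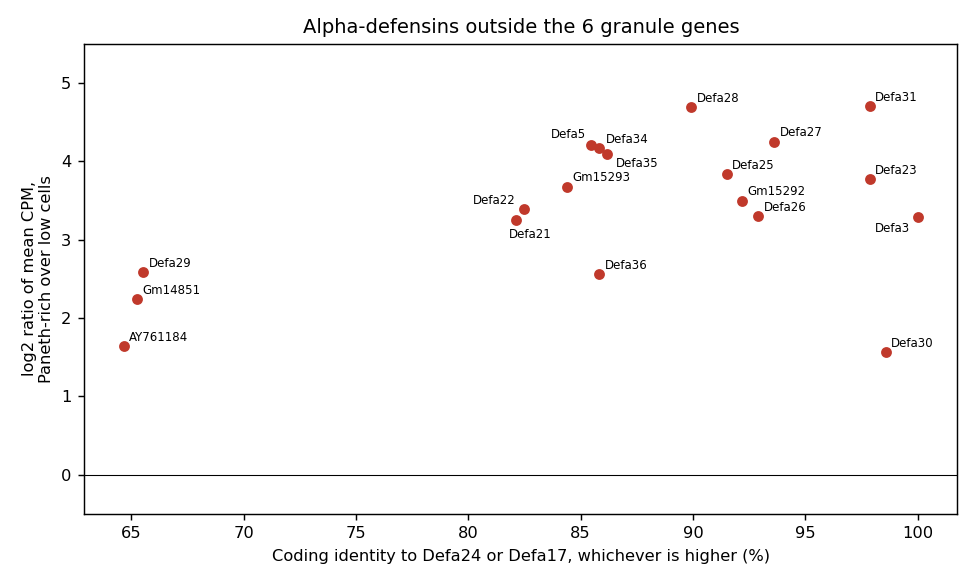
Log2 ratio of mean CPM (Paneth-rich over low cells) of the 19 measured alpha-defensin genes outside the ranking, against the coding identity to Defa24 or Defa17, whichever is higher. Each point is 1 gene, and all points lie between 1.57 and 4.70, from the lowest to the highest identity. Gaps count as differences, which lowers the identity of Defa29, Gm14851 and AY761184, whose reading frames are longer.

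Counted per cell, the breadth of the family also set the classes apart. After every cell was thinned to 10000 counts, a Paneth-rich cell had a count of 2 to 21 of the 23 genes (median 12), and a low cell of 0 to 10 (median 4). At least 10 of the genes were found in 60 of 90 Paneth-rich cells, or 66.7% (exact Clopper-Pearson 95% interval 55.9 to 76.3), in 1 low cell, or 0.538% of them (0.0136 to 2.96), and in 11 middle cells, or 10.6% of them (5.40 to 18.1). Intervals over cells, here and below, treat the cells of 1 sample as independent draws and cover no spread between mice. They do not test the classes, which were ranked on related genes. Without thinning the medians were 14 genes in Paneth-rich cells and 7 in low cells. The table has no cell type that should lack these transcripts. For scale, the T cell gene Cd3e had a count in 7.78% of Paneth-rich cells and 10.2% of low cells at full depth. Among Paneth-rich cells, the number of family members with a count was correlated with the summed CPM of the 6 ranking genes (rho 0.75 over 90 cells), which share sequence and library with them.

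**Figure D3:**
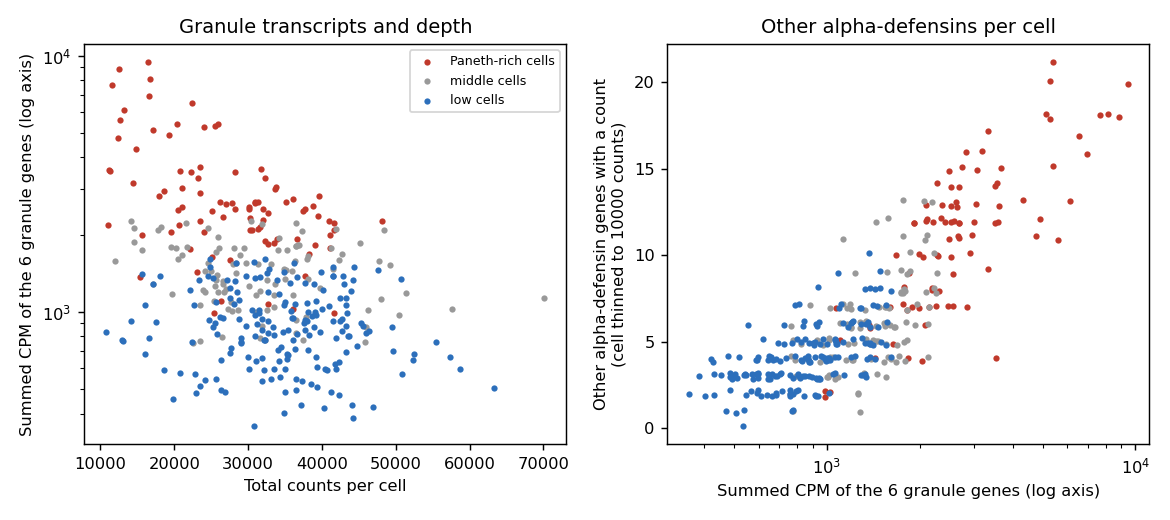
Left, summed CPM of the 6 granule genes (log axis) against total counts, and right, the number of other alpha-defensin genes with a count in each cell thinned to 10000 counts against the same summed CPM. Each point is 1 cell. Paneth-rich cells have a median of 12 such genes, low cells a median of 4, and the cells with the highest CPM lie among the shallower ones.

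Promoters of the family were searched for the letters ATCAAAG, or CTTTGAT on the other strand, the core motif bound by the TCF/LEF factors of Wnt signalling. The windows were RefSeq promoters (GRCm38.p6) from 250 bases before to 50 after the start, and no other motif was searched. All 10 windows of other alpha-defensin genes in that table held a match, against 3.73% of all 32851 windows. Of the ranking genes, Mmp7 held a match in both of its overlapping windows, which is 1 site, and Lyz1, Ang4 and Itln1 held none. The Mmp7 site lies at position 4 from the start in 1 window and −247 in the other. Defa24, Defa17 and the family genes outside these 10 had no window and were not searched. Defa31, with the highest ratio of the coding family, and Defa30, with the lowest, are shown with the motif in capitals.
Defa31, chr8:21191323-21191622, plus strand: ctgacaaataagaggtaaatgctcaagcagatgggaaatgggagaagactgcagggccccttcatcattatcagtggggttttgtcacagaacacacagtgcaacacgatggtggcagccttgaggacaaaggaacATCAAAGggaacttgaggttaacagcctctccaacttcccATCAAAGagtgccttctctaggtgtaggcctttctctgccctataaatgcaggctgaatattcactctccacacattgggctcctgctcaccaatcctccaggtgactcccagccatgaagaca
Defa30, chr8:21134400-21134699, plus strand: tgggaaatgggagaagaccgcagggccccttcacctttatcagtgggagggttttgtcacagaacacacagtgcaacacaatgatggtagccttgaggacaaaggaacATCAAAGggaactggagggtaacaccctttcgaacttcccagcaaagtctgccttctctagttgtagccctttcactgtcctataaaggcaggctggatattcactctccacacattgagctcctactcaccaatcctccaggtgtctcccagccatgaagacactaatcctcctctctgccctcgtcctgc
Defa31 has 2 matches and Defa30 has 1, all before the start of the gene. A match is a stretch of letters, not a bound site, and these windows share descent.

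Other genes listed for Paneth cells did not all follow the defensins. Most of them encode secreted proteins, but the list also holds the transporter Slc12a8, the syntrophin Sntb1 and the membrane receptor Fgfrl1. Of the 22 genes in the table, 15 were measured, and 1 of these, Pla2g2a, had a count in under 10% of low cells. At least 2-fold higher were 8 of the 15, where 0.776% of ranked genes were, and 7 of the 15 against depth-matched low cells, where 1.37% of ranked genes were. The 15 genes had a median log2 ratio of 1.12 ± 0.83 (0.99 against depth-matched low cells, −0.05 over all ranked genes). The median was 0.29 over the genes detected in at least 30% of cells and 0.55 among cells with at least 20000 counts. Lyz2 is a named gene and not on this list. Clps, which encodes the lipase cofactor colipase, averaged 117.5 CPM in Paneth-rich cells and 15.8 CPM in low cells (2.82 ± 0.90, higher in 10 of 10 sets). Reg4, a secreted lectin-like protein, averaged 126.1 CPM in Paneth-rich cells and 25.2 CPM in low cells (2.28 ± 0.79, 10 of 10 sets). Mptx2, a mucosal pentraxin, averaged 61.6 CPM in Paneth-rich cells and 4.32 CPM in low cells (3.56 ± 2.59, 8 of 10 sets). Pla2g2a, the bactericidal phospholipase, averaged 31.3 CPM in Paneth-rich cells and 2.15 CPM in low cells (3.36 ± 2.89), in 7 of 10 sets only.

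The antimicrobial lectins Reg3b and Reg3g, which enterocytes also make, differed little by class. Reg3b averaged 322.5 CPM in Paneth-rich cells and 264.1 CPM in low cells (0.29 ± 0.40), and Reg3g averaged 228.1 CPM in Paneth-rich cells and 193.2 CPM in low cells (0.24 ± 0.35). Both differences were within the SD over sets. Slc12a8 (0.09), Sntb1 (−0.07) and Fgfrl1 (−0.56) also lay within their SDs over sets. As a description, since Lyz1, Defa24 and Mmp7 took part in the ranking, the proportions were as follows. Per 100 Lyz1 counts, Defa24 had 184.96 counts in Paneth-rich cells and 372.9 in low cells, Defa31 43.7 in Paneth-rich cells and 7.27 in low cells, Mmp7 23.1 in Paneth-rich cells and 13.1 in low cells, and Reg3b 65.4 in Paneth-rich cells and 211.9 in low cells. Defa24 had a median of 25 counts in Paneth-rich cells, and the highest count of any gene in a cell was 36.

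Within the Paneth-rich cells the level varied widely. The 30 cells in the top 10% of their sets, which the same ranking chose, hold 26.96% of all counts of the Paneth-rich cells, but 56.4% of their Defa31 counts, 53.4% of their Lyz2 counts and 81.97% of their Defa34 counts. For the 6 ranking genes that share was 36.8% (Defa24) to 49.6% (Mmp7). Without these 30 cells, an alternative chosen after the data were seen, the other 60 Paneth-rich cells still had a median log2 ratio of 2.40 for the other alpha-defensins, but 0.31 for the other Paneth genes, against 1.12 with them. Defa31 was at 117.6 CPM in those 60 cells, and Pla2g2a at 10.2 CPM. The middle cells lay between the classes, with 44.5 CPM of Defa31 and 27.3 CPM of Lyz2.

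**Figure D4:**
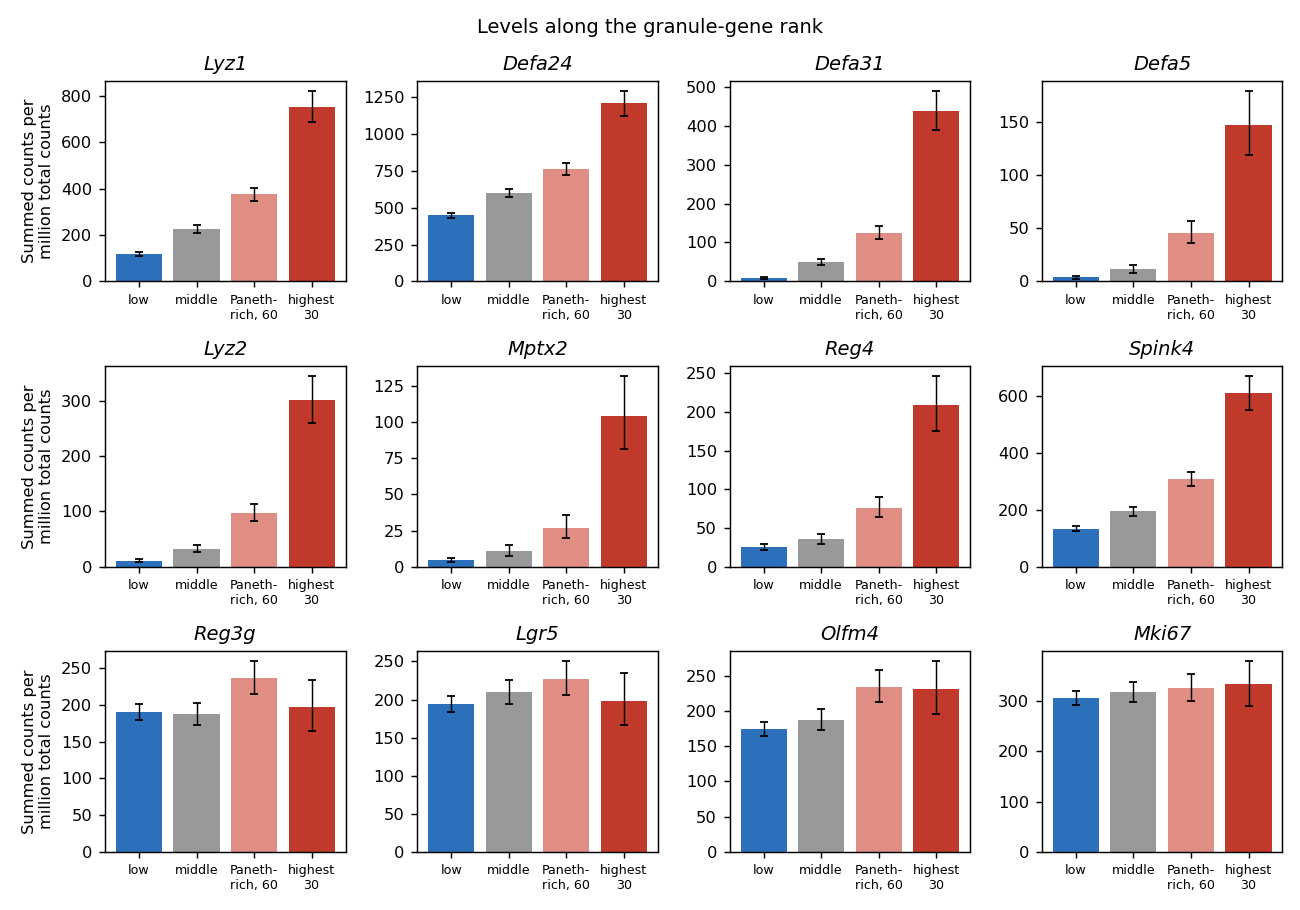
Levels of 12 genes, as CPM of summed counts, in 4 classes in order of granule rank (low cells, middle cells, the 60 Paneth-rich cells below the top 10% of their sets, and the 30 cells in it). Bars start at 0 and whiskers are exact Poisson 95% intervals. Lyz1 and the alpha-defensins are highest in the 30 cells, while Reg3g, Lgr5 and Mki67 keep similar levels across the classes.

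Genes of Paneth cell identity and niche signalling were little different. Of 16 such genes, 11 were measured and 0 were at least 2-fold higher. Since only 0.776% of ranked genes were, 0 of 11 tells little. The median ratio was 0.18 ± 0.32, with −0.13 against depth-matched low cells. It was 0.49 in the 30 cells of the top 10% and 0.02 in the 60 cells below it. The niche ligands Wnt3 (5.28 CPM in Paneth-rich cells, 5.31 CPM in low cells) and Egf (19.3 CPM in Paneth-rich cells, 29.1 CPM in low cells, −0.57 ± 1.12) were low in both classes. Sox9, a transcription factor that Paneth cells require and stem cells also express, averaged 183.96 CPM in Paneth-rich cells and 162.8 CPM in low cells (0.18 ± 0.17, 8 of 10 sets). Cd24a, a surface protein used to sort Paneth cells, averaged 285.95 CPM in Paneth-rich cells and 247.6 CPM in low cells (0.21 ± 0.38). Atoh1, the transcription factor that commits cells to the secretory lineage, had 8 counts in Paneth-rich cells (3.45 to 15.8) and 38 in low cells (26.9 to 52.2), or 3.27 CPM of pooled counts (1.41 to 6.44) in Paneth-rich cells and 5.92 (4.19 to 8.12) in low cells. Gfi1, which acts downstream of Atoh1 in secretory cells, had 1 count in Paneth-rich cells and 8 in low cells. Raw sums are not to scale, since Paneth-rich cells hold 2.45e+06 counts in all and low cells 6.42e+06. At these counts no difference in either factor was detectable.

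Genes of the secretory machinery stood near the median of all genes. The median ratio was −0.03 ± 0.15 for 22 genes of transport into the endoplasmic reticulum, 0.03 ± 0.13 for 29 of protein folding and the unfolded protein response, −0.05 ± 0.13 for 19 of transport to the Golgi, and −0.01 ± 0.11 for 20 of lysosomes and autophagy. Against depth-matched low cells these medians lay between −0.06 and 0.03. Of the 29 folding genes, 15 had a ratio above 0, where 42.9% of ranked genes had one, and 14 had one below 0. The lowest was at −0.53. In the 30 cells of the top 10% the folding median was −0.11. Single chaperones were slightly higher in 9 of 10 sets, among them Calr (282.8 CPM in Paneth-rich cells, 227.02 CPM in low cells, 0.32 ± 0.23), P4hb (326.7 CPM in Paneth-rich cells, 268.4 CPM in low cells) and Hspa5, which encodes BiP (420 CPM in Paneth-rich cells, 369.8 CPM in low cells). The 1 gene of these lists past 2-fold was Ern2, the stress sensor IRE1 beta of secretory epithelia (11.3 CPM in Paneth-rich cells, 3.97 CPM in low cells, 1.31 ± 2.33), and it did not exceed its SD over sets. Zinc transporters and metallothioneins, which serve the zinc-rich granules, had a median of −0.10 ± 0.26 over 9 genes. Of these, Slc30a4, a zinc exporter, was the lowest at −0.99 ± 1.27, with 14.5 CPM in Paneth-rich cells and 29.9 CPM in low cells.

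**Figure D5:**
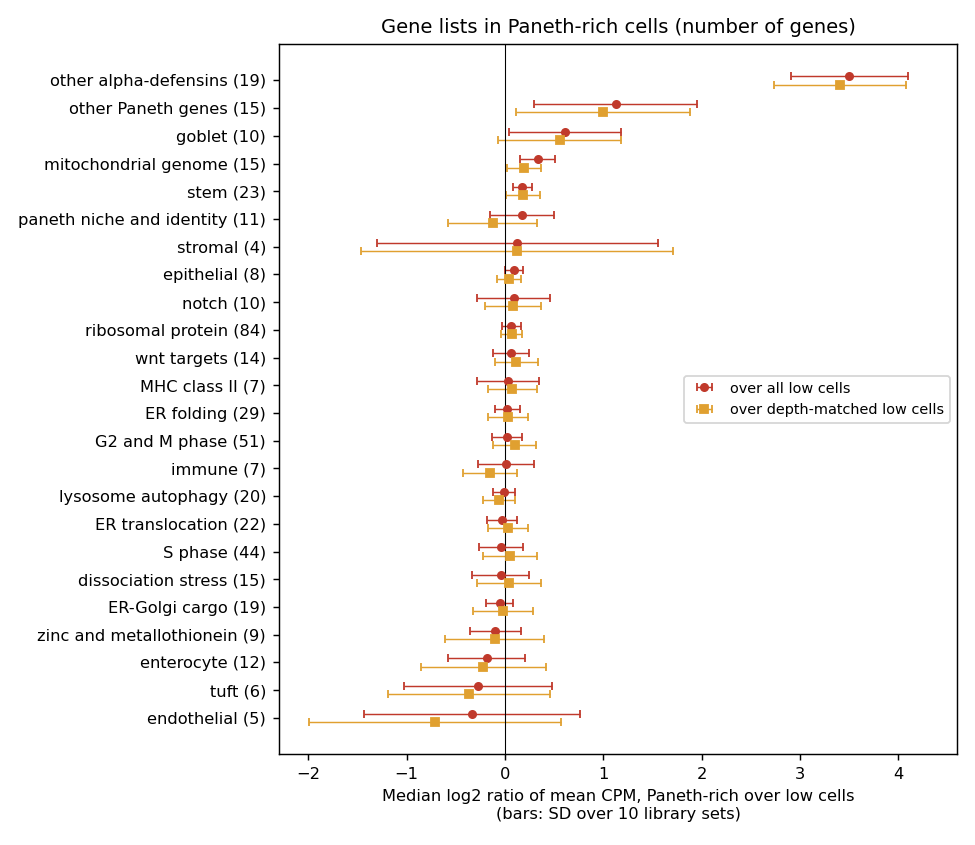
Median log2 ratio of mean CPM for each gene list with at least 3 measured genes (number of genes in brackets), for Paneth-rich over all low cells and over depth-matched low cells, with bars of 1 SD over 10 library sets. Other alpha-defensins lie at 3.50 and other Paneth genes at 1.12, and the goblet list is next at 0.61.

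Goblet cell transcripts were higher as well. Whether goblet cells also make any of the 6 ranking genes, or Paneth cells the goblet genes, was not tested. These values are thus a description of the chosen cells. Of 14 goblet genes in the table, 10 were measured. The list also names Atoh1, whose few counts are given above, and shares Slc12a8 with the Paneth list. All 10 measured goblet genes had a ratio above 0, where 42.9% of ranked genes had one, and 2 of 10 reached 2-fold. The median was 0.61 ± 0.57 (8 of 10 sets above 0) and 0.49 in the 60 cells below the top 10%. Against depth-matched low cells it was 0.56, with 8 of 10 genes above 0, where 44.3% of ranked genes were, and 1 past 2-fold. It was smaller, 0.17, when cells were ranked by raw counts of the 6 genes, which left a log2 ratio of median totals of 0.069, and 0.38 among cells with at least 20000 counts. Spink4, a Kazal-type protease inhibitor, averaged 446 CPM in Paneth-rich cells and 137.8 CPM in low cells (1.69 ± 0.58, 10 of 10 sets). Agr2, a disulfide isomerase of mucin folding, averaged 140.7 CPM in Paneth-rich cells and 71.6 CPM in low cells (0.97 ± 0.42, 10 of 10 sets). The gel-forming mucin Muc2 averaged 53.7 CPM in Paneth-rich cells and 22.1 CPM in low cells, at 1.24 ± 2.09 with 7 of 10 sets, and it had a count in 37.8% of Paneth-rich cells and 30.1% of low cells. Tff3, a trefoil peptide of mucus, averaged 175.7 CPM in Paneth-rich cells and 101.01 CPM in low cells (0.79 ± 0.96). Fcgbp, a mucus protein, was at 0.16 and Zg16, a mucus lectin, at 0.20, with SDs over 1.

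Stem cell transcripts were present in the Paneth-rich cells at the level of the other cells or a little above. Lgr5 averaged 226.96 CPM in Paneth-rich cells and 198.02 CPM in low cells (0.20 ± 0.43), with a median count of 5 in Paneth-rich cells and 6 in low cells, and had a count in 95.6% of Paneth-rich cells and 98.9% of low cells. Granule transcripts and Lgr5 thus occur in the same libraries, but the ranking and the sort chose the cells for them, so these values are no check of the label. The 23 genes of the stem list had a median ratio of 0.18 ± 0.10 (9 of 10 sets above 0). Of these, 19 of 23 were above 0, where 42.9% of ranked genes were. Against depth-matched low cells the median was 0.18, with 17 of 23 above 0, where 44.3% of ranked genes were. It was 0.08 in the 60 cells below the top 10% and 0.08 with the ranking by raw counts. Ranked genes with a mean of 15 counts or more had a median of 0.20, and the part of abundance in the stem median was not tested. Olfm4, a stem cell glycoprotein secreted at the crypt base, averaged 243.8 CPM in Paneth-rich cells and 174.4 CPM in low cells (0.48 ± 0.40, 9 of 10 sets). Ephb3, a Wnt-controlled receptor that positions Paneth cells, averaged 100.5 CPM in Paneth-rich cells and 66.6 CPM in low cells (0.59 ± 0.76). Clca3b, which encodes a chloride channel accessory protein, averaged 519 CPM in Paneth-rich cells and 436 CPM in low cells (0.25 ± 0.17, 10 of 10 sets). Smoc2 stood at 0.29 ± 0.41, Axin2 at 0.22 ± 0.43 and Ascl2 at 0.07 ± 0.51, each within its SD.

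Cell cycle transcripts did not separate the classes. The median ratio was −0.04 ± 0.22 for 44 S phase genes and 0.02 ± 0.15 for 51 G2 and M phase genes. Against depth-matched low cells they were 0.05 and 0.10, in the same order. Mki67, the gene of the proliferation antigen Ki-67, averaged 327.5 CPM in Paneth-rich cells and 303.2 CPM in low cells (0.11 ± 0.26). Top2a, the topoisomerase of mitosis, averaged 463 CPM in Paneth-rich cells and 433 CPM in low cells (0.10 ± 0.21). Bub1, a mitotic checkpoint kinase, was lower in 10 of 10 sets, with 33.2 CPM in Paneth-rich cells and 64.8 CPM in low cells (−0.94 ± 0.61). At least 10 other alpha-defensin genes (after thinning) were found in 60 of 90 Paneth-rich cells and 1 low cell, as given above. With Lgr5 and Mki67 also required, 57 of 90 Paneth-rich cells remained, or 63.3% (52.5 to 73.2). The same 3 were met in 1 low cell, or 0.538% (0.0136 to 2.96). The joint count thus largely repeats the defensin count. This count does not tell a cell that makes all 3 from a capture site with more than 1 cell or with free RNA, and their part was not tested. Genes per cell were fewer in Paneth-rich cells, which were also shallower. Leaving out the 5% of cells with the most genes gave a median of 3.60 for the other alpha-defensins. Neither value is a test of shared capture sites or of free RNA.

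For cell types outside the crypt epithelium, the list medians lay within their SDs over sets. The immune list had 7 of 12 genes measured and a median of 0.01 ± 0.29, and its summed level was 66.2 to 1885 CPM in Paneth-rich cells and 0 to 978 CPM in low cells. Lyz2, which is on that list, made up much of this difference, while Ptprc, the leukocyte antigen CD45, averaged 12.4 CPM in Paneth-rich cells and 12.3 CPM in low cells. The stromal list (4 of 7 measured) stood at 0.12 ± 1.43 and the endothelial list (5 of 5) at −0.34 ± 1.10. Of the endothelial genes 0 of 5 had a ratio above 0, where 42.9% of ranked genes had one. The same held against depth-matched low cells, with 0 of 5 and 44.3%. Enterocyte genes (12 of 14) had −0.18 ± 0.39, with Fabp2 at −0.21 ± 0.34, and tuft cell genes (6 of 10) had −0.27 ± 0.75. Against depth-matched low cells the medians were −0.15 for the immune, 0.12 for the stromal, −0.71 for the endothelial, −0.22 for the enterocyte and −0.36 for the tuft list. Of the enteroendocrine list 2 of 13 genes were measured, of the enteric glia list 2 of 4, and of the red blood cell list 0 of 1. The general epithelial list stood at 0.09 ± 0.09, the ribosomal protein list at 0.07 ± 0.09, MHC class II at 0.03 ± 0.32, Wnt targets at 0.07 ± 0.18 and Notch genes at 0.09 ± 0.37. The mitochondrial genome list stood at 0.33 ± 0.18 in 10 of 10 sets, 0.19 against depth-matched low cells and −0.068 when cells were ranked by raw counts of the 6 genes.

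Among immediate early and heat shock genes that tissue dissociation induces, the median was −0.04 ± 0.29 over 15 genes. Hspa1a, which encodes the inducible chaperone HSP70, averaged 30.1 CPM in Paneth-rich cells and 63.1 CPM in low cells (−1.05 ± 1.09) and was higher in 0 of 10 sets. Zfp36, which encodes a protein that destabilises mRNA, averaged 97.4 CPM in Paneth-rich cells and 147.7 CPM in low cells (−0.60 ± 0.52), while Fos averaged 374.2 CPM in Paneth-rich cells and 335.4 CPM in low cells (0.16 ± 0.35).

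The 12 named genes at the low end had few counts. All averaged under 10 CPM in Paneth-rich cells and so passed the filter on means through low cells. They are Mrps36-ps2, Cfap221, Gm26205, 3110001I22Rik, Fsbp, Vstm2l, Gm14121, Abhd3, Gm15267, Slc2a2, Zfp341 and 2500002B13Rik, with 5 to 22 counts in Paneth-rich cells and at least 64 in low cells. These raw sums, here and below, are not scaled for class size. Low cells hold 6.42e+06 counts in all and Paneth-rich cells 2.45e+06. Abhd3, an enzyme that cleaves phospholipids, had a count in 20.0% of Paneth-rich cells and 43.5% of low cells, means of 7.91 CPM in Paneth-rich cells and 25.9 CPM in low cells, and a ratio of −1.60 ± 0.80 in 10 of 10 sets. Cfap221, a cilium and flagellum protein, had 7 counts in Paneth-rich cells and 76 in low cells (−1.88 ± 1.23, lower in 10 of 10 sets). Slc2a2, which encodes the glucose transporter GLUT2 of enterocytes, had 7 counts in Paneth-rich cells and 64 in low cells (−1.57 ± 1.32, lower in 9 of 10 sets). Exons of Gm26205, 3110001I22Rik, Fsbp and Zfp341 overlap those of another gene. A set holds only 9 Paneth-rich cells, so genes this rare often have no count there.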

How the data were processed

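The authors deposited 1 table of whole-number counts per gene (33496 genes) in 400 cells, and these were used as counts, not normalized. Here they were scaled to counts per cell total (CPM). The submitters' processing notes name GRCm38.p4 as the build. Not given in the sources used here are the aligner, the counter, strand use and molecular identifiers. Symbols came from GENCODE M21 (33219 identifiers matched, 277 did not). Kept were 380 cells of 10766 to 70133 counts; 20 cells under 10000 counts were left out. Each library set held 40 cells. The 6 ranking genes were left out of all ranked genes and lists.

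The members and the gene lists were chosen with earlier results of these data known. List values are medians over genes detected in 10% or more of kept cells. Ratios use a pseudocount of 1 CPM. Genes named outside a list are the 12 highest and 12 lowest ratios among ranked genes with 1 direction in at least 9 of 10 sets. Other genes in the text come from the lists. Thinning to 10000 counts was random, without replacement, with a fixed seed. Doublets were not removed, and 1 alternative leaves out the 5% of cells with the most genes. No pair of cells had identical columns. The calculation was tested on simulated data. Python 3.11.15, numpy 2.4.6, pandas 2.3.3, scipy 1.17.1 and matplotlib 3.10.9 were used. With 1 sample, no p-value was computed.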

Additional observations from a re-analysis of the deposited data

Results flagged for a closer look

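The 20 cells left out for having fewer than 10000 counts (median total 7780) carried granule transcripts too. Their summed CPM of the 6 genes was 1023 to 11750, with a median of 3432, against a median of 1218 in the 380 kept cells, and 3 counts would be worth at most 668 CPM in the shallowest of them. In raw counts the 6 genes had a median of 28 in these cells and 38 in kept cells. The other alpha-defensins had a median of 3056 CPM in the left-out cells and 1091 CPM in kept cells. These cells take no part in the comparison above, and the part of depth in their high CPM was not tested.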

How the results depend on the processing

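No paired analysis was possible because all cells belong to 1 group, so no replicate number is shared between groups (the matching of low cells by total is not such a pairing). Over 14 alternatives and the leaving out of each library set, 17 of 240 values of the main results moved and 1 reversed. Moved means by more than the SD over sets, or for shares of genes by more than 1.5 times. A reversed value also changed sign, from a main value of at least its SD. Of 453 list values 5 moved and 1 reversed. With a wide SD a shift can count as unmoved, as the goblet median of 0.17 with ranking by raw counts did. Leaving out 1 of 10 sets keeps most cells, so those values are a weak check. All 24 named genes kept their sign. They were chosen from these same cells for extreme ratios of 1 direction in at least 9 of 10 sets. Their sign was thus nearly fixed by the choice and is no support for them. Ranking by raw counts of the 6 genes gave 0.069 for the log2 ratio of median totals (−0.35 in the report) and −0.068 for the mitochondrial genome list (0.33), and 15 of 26 lists then kept their direction, as 21 of 26 did with depth-matched low cells. Taking the top 10% of each set gave −0.64 for the totals, 4.54 for other alpha-defensins, 2.03 for other Paneth genes and −0.11 for protein folding, with 3.17% of genes at least 2-fold higher and 8.57% lower. Those shares, 0.776% and 1.31% in the report, became 1.33% and 3.07% with depth-matched low cells (of the genes ranked anew with those cells), 1.78% and 3.81% in thinned cells, 0.289% and 0.00705% with a pseudocount of 10 CPM, and 0.233% and 0.287% for genes in at least 30% of cells. That filter gave 0.29 for other Paneth genes, and that pseudocount 2.75 for other alpha-defensins. The 60 cells below the top 10%, an alternative added after the data were seen, gave 2.40 for other alpha-defensins. Leaving out each library set gave −0.40 to −0.31 for the totals, 3.35 to 3.69 for other alpha-defensins, 0.72 to 1.35 for other Paneth genes, 0.50 to 0.80 for goblet genes, 0.14 to 0.20 for stem genes, −0.066 to 0.014 for S phase, −0.0065 to 0.060 for G2 and M phase, −0.023 to 0.047 for protein folding, and 0.817% to 1.04% and 1.43% to 1.86% of genes past 2-fold. The cause of these shifts was not tested. Depth limits genes with few counts.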

Other observations

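The Paneth-rich cells were spread over the barcode numbers in the cell titles. Of 40 barcode numbers, 36 held at least 1 of them and 4 held none, and the most from 1 number was 5. Barcodes 1 to 20 held 42 Paneth-rich cells and 98 low cells, and barcodes 21 to 40 held 48 Paneth-rich cells and 88 low cells.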
